A study of Mus musculus with 66 samples.

Results

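The genes described here are 10 genes of salt and water transport in the colon, out of 30452 genes in the deposited table. They were chosen by name and not by a rule on their values, but with earlier results of these data known. They are the anion exchangers Slc26a3 and Slc26a2, the sodium-proton exchangers Slc9a3 and Slc9a2, the water channel Aqp8 and the chloride channel Cftr. The others are the epithelial sodium channel subunits Scnn1a, Scnn1b and Scnn1g, and the colonic proton-potassium pump Atp12a. The level of each gene is the sum over its listed transcripts in TPM, the usual unit of transcript abundance, which corrects for transcript length and gives every library one common total. All 10 were listed, with values for 33 of their 36 transcripts.

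The tissue came from 19 wild-type C57Bl/6 mice that were 6 weeks old when bought. Dextran sulfate sodium (DSS), an agent that damages the colonic mucosa, was given at 3% for 6 days. The 4 mice of day 0 were not exposed, and 3 mice each were taken at day 3, during exposure, and at days 6, 9, 14 and 20. Mid-colon, rectum and anus were sampled in all 19 mice, and squamous neo-epithelium of the colon in the 9 mice of days 9, 14 and 20. The muscle layer had been discarded from each section, per the series' design text. The 4 anal libraries of day 0 still summed to between 1492 and 14335 TPM over 4 skeletal muscle markers. The labels matched the epithelial markers: over 6 squamous markers such as Krt5 and Krt13, anal and neo-epithelial libraries held between 7698 and 25936 TPM in sum, and mid-colonic libraries between 3.43 and 21.8 TPM. Rectal libraries held between 6.42 and 766 TPM of them. Read counts were not used here, so the depth of each library is unknown. Nothing in the labels ties mice of a day to 1 cage or litter, and the p-values measure the spread between these mice.

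The colon dries its contents mainly by taking up sodium and chloride, and water follows. Surface cells pair a sodium-proton exchanger with a chloride-bicarbonate exchanger, and the distal colon adds the epithelial sodium channel, which is built from 3 kinds of subunit and responds to aldosterone. Chloride leaves crypt cells through CFTR, which drives secretion. The loss of the chloride exchanger encoded by Slc26a3 causes a congenital chloride-losing diarrhoea in people.

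Sequence just upstream of the RefSeq transcription start (250 bases) was on hand for 6 of the 10 genes, for the GRCm38.p6 build. The 3 shown belong to Slc26a3 and Aqp8, which were both lowest at day 9 in the data below, and Scnn1g, which was lowest in rectum at day 20. Aqp8, and Scnn1g in rectum, were already lower at day 3. Whether the courses of these genes differ was not tested. The sequences run 5′ to 3′ and end at the base before the start.
Slc26a3 (chr12:31437969-31438218, plus strand): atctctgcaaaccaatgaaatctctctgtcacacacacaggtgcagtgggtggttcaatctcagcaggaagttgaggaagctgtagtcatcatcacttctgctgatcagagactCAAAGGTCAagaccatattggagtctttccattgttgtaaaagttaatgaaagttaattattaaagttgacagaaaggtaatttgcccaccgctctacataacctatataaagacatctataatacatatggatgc
Aqp8 (chr7:123462044-123462293, plus strand): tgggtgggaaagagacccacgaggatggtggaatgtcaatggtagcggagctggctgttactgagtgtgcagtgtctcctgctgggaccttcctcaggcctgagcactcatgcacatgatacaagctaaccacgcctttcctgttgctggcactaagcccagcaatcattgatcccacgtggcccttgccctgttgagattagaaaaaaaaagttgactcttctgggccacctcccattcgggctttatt
Scnn1g (chr7:121734229-121734478, plus strand): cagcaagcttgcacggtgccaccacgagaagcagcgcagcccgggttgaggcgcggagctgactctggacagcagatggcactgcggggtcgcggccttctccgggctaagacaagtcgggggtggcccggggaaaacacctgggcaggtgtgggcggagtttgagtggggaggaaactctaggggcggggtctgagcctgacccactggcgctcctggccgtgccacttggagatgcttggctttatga
The capitals in the Slc26a3 sequence mark CAAAGGTCA, a site of the HNF4A type, at positions -136 to -128 from the start. These letters were chosen after the sequence had been seen. On either strand they occur in 0.426% of 32851 upstream sequences of the same length, and in 1 of the 6 sequences of these genes. TTTATNG, a site of the CDX type, occurs in 9.81% of all and in 0 of the 6. TGTTCT, a half-site of the mineralocorticoid and glucocorticoid receptors, occurs in 16.1% of all and in 0 of the 6. The RefSeq start of Slc26a3 lies inside the gene as GENCODE draws it (chr12:31390871-31473917). Scnn1g (chr7:121734479-121768475) and Scnn1b (chr7:121865038-121918514) lie 96562 bases apart on the plus strand of chromosome 7 in GRCm38, with Aqp8 (chr7:123462291-123468004) further along.

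In untreated mid-colon, Aqp8 and Slc26a3 were the most abundant of the 10 genes, and Slc9a3 the least abundant. The mean level was 1607 ± 98.1 TPM for Aqp8 and 1488 ± 261 TPM for Slc26a3 (SD, n = 4, as for the other means at day 0), and their ranges overlapped. Next came Atp12a at 433 ± 99.1 TPM and Slc26a2 at 351 ± 103 TPM, which overlapped too, then Scnn1a at 122 ± 31.4 TPM and Slc9a2 at 109 ± 19.1 TPM. Scnn1b at 16.9 ± 2.05 TPM, Scnn1g at 16.7 ± 4.56 TPM, Cftr at 11.3 ± 2.46 TPM and Slc9a3 at 9.49 ± 1.78 TPM made up the low end, each overlapping its neighbour. In untreated rectum the order put Slc26a3 (1172 ± 124 TPM) and Aqp8 (1010 ± 149 TPM) at the top again, and Slc9a3 at the bottom (2.30 ± 0.806 TPM).

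Along the untreated gut, the sodium channel subunits Scnn1b and Scnn1g were higher in rectum than in mid-colon, and Slc9a3 and Aqp8 were lower. Scnn1g was at 11.4, 22.5, 16.1 and 16.9 TPM in the mid-colon of mice 1 to 4 and at 39.8, 61.7, 41.9 and 45.3 TPM in their rectum. No rectal value of Scnn1g overlapped a mid-colonic one. The change was 1.46 ± 0.20 on the log2(TPM + 1) scale (± SE, as in all log2 changes below; adjusted p = 0.0145). All adjusted p-values here are from limma with Benjamini-Hochberg adjustment over all genes tested, and a gene counts as called when its adjusted p is under 0.05. Scnn1b was 0.68 ± 0.12 higher (adjusted p = 0.0301). Slc9a3 was at 9.48, 9.09, 11.9 and 7.54 TPM in mid-colon and at 1.94, 1.41, 2.59 and 3.27 TPM in rectum (-1.69 ± 0.20, adjusted p = 0.00605). Aqp8 was 0.68 ± 0.11 lower in rectum (log2 change -0.68, adjusted p = 0.0267). So 2 of 10 genes were called higher, against 1.52% of all 12037 genes tested, and 2 lower, against 0.274%. The other 6 were not called, with log2 changes from -0.33 for Slc26a3 and Atp12a to 0.11 for Cftr. The 4 calls rested on all of mice 1 to 3: without mouse 1, 2 or 3 none was left, with adjusted p between 0.051 and 0.189, and without mouse 4 all 4 stood. With TMM factors 1 gene was called higher and 2 lower, and relative to simple epithelial genes 1 in each direction. The shares of all genes called in these 2 ways are not given.

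In untreated anus, all 10 genes were lower than in untreated rectum, against 34.4% of the 13158 genes tested. Slc9a2 differed by the most (-4.11 ± 0.38, adjusted p = 1.61e-05) and Scnn1b by the least (-1.15 ± 0.27, adjusted p = 0.0044). Slc9a3 was listed at 0 in 1 anal library and at no more than 0.0421 TPM in the other 3. It entered the test through its rectal values alone, so it could only be called lower. Anal libraries hold less simple epithelium: over 6 markers such as Epcam and Krt8 they summed to between 1738 and 4951 TPM, against 10435 to 12628 TPM in rectum. The part of that difference in the result was not tested. The anal library of mouse 4 stood apart, with the highest value of 9 of the 10 genes and the highest simple epithelial sum of its group. Without it all 10 genes were still called lower.

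**Figure D1:**
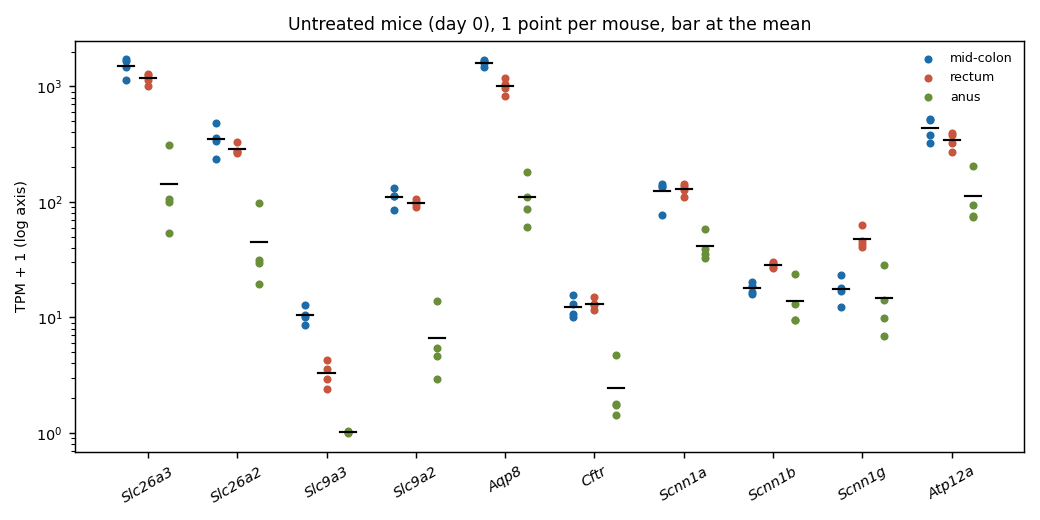
TPM + 1 on a log axis of the 10 genes in the mid-colon, rectum and anus of the 4 untreated mice, with 1 point per mouse and a bar at the mean. Scnn1b and Scnn1g are higher in rectum than in mid-colon, Slc9a3 and Aqp8 are lower, and anus is lowest in each case on average.

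After DSS the summed level of the 10 genes was lowest at day 9 in mid-colon and rectum, and it had partly returned by day 20. The sum is weighted towards abundant genes, such as Aqp8 and Slc26a3 at day 0. Some of the less abundant genes had other courses, given below. Summed, the 10 genes held between 0.356% and 0.465% of each mid-colonic library at day 0, between 0.0524% and 0.0913% at day 9 and between 0.162% and 0.251% at day 20. In rectum the share was between 0.285% and 0.347% at day 0, between 0.0439% and 0.0569% at day 9 and between 0.124% and 0.242% at day 20. In both sections no day 9 or day 20 library reached the range of day 0. The 5 comparisons of a section with day 0 share the same 4 untreated samples, so they are not independent of one another.

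**Figure D2:**
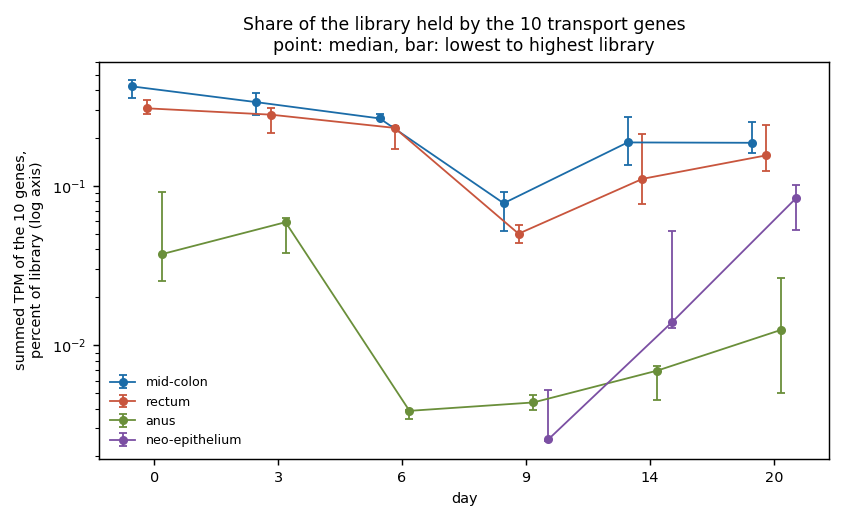
Summed TPM of the 10 genes as a percent of the library, on a log axis, by day and section (point, median; bar, lowest to highest library). Mid-colon and rectum are lowest at day 9, anus at day 6, and neo-epithelium climbs from day 9 to day 20.

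All 10 genes were tested in mid-colon and in rectum. In mid-colon 1 was called lower on day 3, against 0.308% of all genes, and 8 on day 6, against 9.99%. There were 7 on day 9 (17.0%), 4 on day 14 (1.81%) and 3 on day 20 (0.883%). In rectum 6 were called lower on day 3 (5.13% of all genes), 8 on day 6 (37.2%), 7 on day 9 (20.0%), 7 on day 14 (9.51%) and 3 on day 20 (4.88%). The only gene called higher at any day in either section was Atp12a, in rectum at day 6, when 11.5% of all genes were called higher. At day 9 the median log2 change of the 10 genes was -1.45 in mid-colon, where the median of all genes tested was 0.09, and -1.57 in rectum, where it was 0.13. At day 6 the medians were -0.95 and -0.89, beside medians of -0.24 and -0.27 over all genes. With TMM factors the all-gene median at day 6 in rectum was -0.04 in place of -0.27, and the members' median was -0.63. With these factors 5 genes were called lower in rectum at day 6 and 6 in mid-colon. Rectal Aqp8, Scnn1b and Scnn1g lost their calls (adjusted p = 0.179, 0.0568 and 0.123), and mid-colonic Slc26a3 and Scnn1g lost theirs (0.316 and 0.111). The share of all genes called with these factors is not given.

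Some of these counts rested on single libraries. At day 9 all 7 calls stood in each section whichever library was left out. At day 6 in mid-colon, Slc9a2 was lost without mouse 1, 2, 3, 9 or 10, Scnn1g without mouse 1, 2, 3, 8 or 10, and Scnn1a without mouse 10 (adjusted p from 0.0503 to 0.109), while Slc26a2 was gained without mouse 4 or 9 (0.0448 and lower). At day 14 in mid-colon, Slc9a2 and Scnn1a were lost without mouse 1, 2, 3, 15 or 16 and Atp12a without mouse 2, 3, 15 or 16 (adjusted p up to 0.165), while Slc26a2 was gained without mouse 4 or 14 and Aqp8 without mouse 14. At day 3 in rectum, Slc9a2 was lost without mouse 1, 2, 3, 5 or 6 and Cftr without mouse 1, 3, 4, 5 or 6 (up to 0.103). At day 6 in rectum, Aqp8 was lost without mouse 1, 2, 3, 8 or 9 and Scnn1g without mouse 1, 2, 3 or 4 (up to 0.0899). At day 14 in rectum the 7 were Slc26a3, Slc26a2, Slc9a2, Aqp8, Scnn1a, Scnn1b and Scnn1g, and only Scnn1a and Scnn1g stood without mouse 1, 2, 3, 4, 15 or 16 (adjusted p of the other 5 up to 0.159). Without mouse 14, the highest rectal library of that day for 8 of the 10 genes, Cftr was called too (-0.54, adjusted p = 0.0159). That library held 24.8 TPM of squamous markers against 766 and 465 TPM in mice 15 and 16, and 26317 TPM of goblet cell markers against 13083 and 13990 TPM, and their part was not tested. At day 20 in mid-colon, Scnn1a was gained without mouse 4 (-1.51, adjusted p = 0.0145) or mouse 19 (-1.56, adjusted p = 0.0175).

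Other cells moved over the same days. Over 5 neutrophil markers, rectal libraries summed to between 15.3 and 26.2 TPM at day 0 and between 10398 and 12280 TPM at day 9, and mid-colonic ones to between 8.41 and 18.2 TPM and between 485 and 2128 TPM. Simple epithelial sums were between 10435 and 12628 TPM in rectum at day 0 and between 6988 and 8770 TPM at day 9, and in mid-colon between 8730 and 12590 TPM and between 6774 and 9060 TPM. In bulk tissue, fewer cells of a type and less RNA per cell cannot be told apart. In both sections the drop of 5 of the genes was larger than that of the epithelial markers. Taken relative to the 6 simple epithelial genes, Slc26a3, Slc26a2, Slc9a2, Aqp8 and Scnn1a were still called lower at day 9 in both sections. Cftr was still called lower in rectum alone (-0.69, adjusted p = 0.00867). The share of all genes called lower on this relative scale is not given.

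Slc26a3, which encodes the apical chloride-bicarbonate exchanger of surface colonocytes, had the largest fall in rectum. It was at 1011, 1143, 1245 and 1291 TPM in untreated rectum and at 112, 38.6 and 60.6 TPM at day 9. The highest day 9 value was far under the lowest untreated one, and the log2 change was -4.17 ± 0.30 (adjusted p = 1.14e-05). In mid-colon it went from 1130, 1463, 1710 and 1651 TPM to 285, 94.1 and 228 TPM (-3.00 ± 0.32, adjusted p = 7.52e-05). Relative to simple epithelial genes the changes were -3.86 in rectum and -2.61 in mid-colon, and both stayed called. The fall was late. At day 3 the log2 change was 0.03 ± 0.13 in rectum (adjusted p = 0.928) and -0.03 ± 0.16 in mid-colon (adjusted p = 0.951). At day 6 it was -0.80 ± 0.16 in rectum (561, 882 and 609.6 TPM, adjusted p = 0.00519) and -0.59 ± 0.16 in mid-colon (adjusted p = 0.0369). The mid-colonic call at day 6 was lost without mouse 2, 3, 8, 9 or 10 (adjusted p from 0.0517 to 0.139), and with TMM factors the change was -0.33 (adjusted p = 0.316).

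Slc26a3 then returned in part. Rectal levels were 777, 349 and 284 TPM at day 14 and 412, 477 and 998 TPM at day 20. At day 20 mouse 19 was near the untreated range in rectum, at 998 TPM, while mice 17 and 18 were not. The rectal library of mouse 19 held 53.5 TPM of neutrophil markers, against 258 and 675 TPM in mice 17 and 18, and 7.92 TPM of squamous markers, against 427 and 267 TPM. Their part in this and in the other day 20 results that turn on mouse 19 was not tested. Day 20 was above day 9 by 3.16 ± 0.44 in rectum (adjusted p = 0.00505) and by 1.91 ± 0.43 in mid-colon (adjusted p = 0.0156). Against day 0, day 20 was not called in rectum (-1.0 ± 0.28, adjusted p = 0.0617) or in mid-colon (-1.08 ± 0.26, adjusted p = 0.0638). Without mouse 19 both were called lower, at -1.39 in rectum (adjusted p = 0.00101) and -1.41 in mid-colon (adjusted p = 0.00717). At day 14 it was called lower in rectum (-1.45 ± 0.31, adjusted p = 0.0241) and in mid-colon (-1.11 ± 0.22, adjusted p = 0.0289). The mid-colonic call was lost without mouse 2, 3, 15 or 16 (up to 0.129), with TMM factors (-1.07, adjusted p = 0.0599) and relative to simple epithelial genes (-0.78, adjusted p = 0.111).

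Slc26a2, a sulfate transporter of the same family, followed a like course at a lower level. Rectal values were 271, 277, 326 and 264 TPM at day 0 and 37.9, 13.5 and 36.0 TPM at day 9 (-3.37 ± 0.31, adjusted p = 4.56e-05). In mid-colon the day 9 change was -2.75 ± 0.27 (adjusted p = 4.54e-05). At day 3 neither section was called, with changes of 0.12 in rectum and 0.15 in mid-colon. At day 20 the change was -0.96 ± 0.31 in rectum (adjusted p = 0.0893) and -0.98 ± 0.29 in mid-colon (adjusted p = 0.103), neither called. Without mouse 19 the rectal change was -1.26 (adjusted p = 0.0185), and without mouse 4 the mid-colonic one was -1.16 (adjusted p = 0.0431).

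The 2 apical sodium-proton exchangers differed in course. Slc9a2, which encodes NHE2, was at 105, 94.5, 98.1 and 88.8 TPM in untreated rectum and at 30.9, 16.4 and 30.8 TPM at day 9. The groups did not overlap (-1.90 ± 0.21, adjusted p = 1.10e-04), and in mid-colon the change was -2.14 ± 0.24 (adjusted p = 9.09e-05). It was called lower at day 20 in mid-colon (-1.0 ± 0.20, adjusted p = 0.0395) but not in rectum (-0.55 ± 0.18, adjusted p = 0.0927), and the difference between the sections at day 20 was not called (0.45 ± 0.28, adjusted p = 1). The mid-colonic call at day 20 was lost without mouse 1, 2, 3, 17 or 18 (adjusted p from 0.0768 to 0.13) and relative to simple epithelial genes (-0.73, adjusted p = 0.186). Without mouse 19 the rectal change at day 20 was called (-0.77, adjusted p = 0.00755).

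Slc9a3 encodes NHE3, the exchanger usually paired with the chloride exchanger in absorption. It was not called at day 9 in either section, with mid-colonic values of 9.43, 7.13 and 8.83 TPM against 9.48, 9.09, 11.9 and 7.54 TPM at day 0 (-0.14 ± 0.20, adjusted p = 0.596). In rectum it was at 3.14, 1.76 and 6.41 TPM at day 9 against 1.94, 1.41, 2.59 and 3.27 TPM (0.44 ± 0.33, adjusted p = 0.294). The ranges overlapped in both sections. It was lowest at day 3, at 1.86, 5.27 and 4.72 TPM in mid-colon and at 0.891, 1.14 and 1.07 TPM in rectum, below every untreated value, but neither comparison was called (adjusted p = 0.158 and 0.0926). In mid-colon it was called with TMM factors (-1.28, adjusted p = 0.027) and relative to simple epithelial genes (-1.23, adjusted p = 0.0402), and in rectum without mouse 2 (-0.81, adjusted p = 0.0481). At day 6 it was called lower in mid-colon (-0.89 ± 0.20, adjusted p = 0.0197), a call lost without mouse 1, 2, 3, 8 or 9 (adjusted p from 0.0515 to 0.0656), and it was not called in rectum (0.13 ± 0.30, adjusted p = 0.736). At day 20 rectal values were 3.57, 4.37 and 13.6 TPM, all above the untreated range, with a change of 1.14 ± 0.40 (adjusted p = 0.106), called with all 66 samples in the fit (adjusted p = 0.0168). These levels are low, and on the log2(TPM + 1) scale changes of low genes are understated.

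Aqp8, a water channel of surface colonocytes, was the one gene of the 10 called lower at day 3 in both sections. In mid-colon it was at 1469, 1685, 1606 and 1668 TPM at day 0 and at 527, 668 and 834 TPM at day 3. In rectum it was at 976, 1050, 1186 and 828 TPM and then at 305, 545 and 432 TPM. No value overlapped, and the log2 change was -1.27 ± 0.15 in mid-colon (adjusted p = 0.011) and -1.27 ± 0.19 in rectum (adjusted p = 0.00513). The mid-colonic call was lost without mouse 6 (adjusted p = 0.0584), when low values were not filtered (adjusted p = 0.0922) and with all 66 samples in the fit (adjusted p = 0.439). The rectal call was lost with all 66 samples too (adjusted p = 0.479). At day 6 levels were no lower than at day 3, with 832, 850.1 and 822 TPM in mid-colon and 361, 546 and 902 TPM in rectum. By day 9 they were at 99.4, 97.4 and 226 TPM in mid-colon (-3.62 ± 0.26, adjusted p = 1.28e-05) and at 38.9, 105 and 117 TPM in rectum (-3.66 ± 0.34, adjusted p = 4.65e-05). Day 20 was above day 9 by 2.56 ± 0.36 in mid-colon (adjusted p = 0.00256) and by 2.61 ± 0.49 in rectum (adjusted p = 0.0117). At day 20 mid-colon, at 557, 989 and 835 TPM, was still called below day 0 (-1.05 ± 0.20, adjusted p = 0.0363), a call lost without mouse 1, 2, 3 or 17 (adjusted p up to 0.116), with TMM factors (adjusted p = 0.0611) and relative to simple epithelial genes (-0.79, adjusted p = 0.129). The rectal change at day 20 was also -1.05, with a wider error (± 0.31, adjusted p = 0.0759), and was called without mouse 19 (-1.39, adjusted p = 0.00922).

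Cftr, the chloride channel of secreting crypt cells, had its lowest mean at day 6, not at day 9. In rectum it was at 11.8, 10.7, 12.0 and 14.1 TPM at day 0, at 3.78, 2.00 and 1.09 TPM at day 6 and at 7.21, 3.65 and 6.34 TPM at day 9. The day 6 change was -2.08 ± 0.25 (adjusted p = 6.70e-04) and the day 9 change -1.0 ± 0.21 (adjusted p = 0.00348). The rectal values of days 6 and 9 overlapped, and the difference between these days was not tested. In mid-colon Cftr was at 5.59, 4.28 and 1.72 TPM at day 6 against 9.79, 12.0, 14.5 and 9.00 TPM (-1.41 ± 0.30, adjusted p = 0.0155), and at day 9 it was not called (-0.41 ± 0.23, adjusted p = 0.18). The mid-colonic call at day 6 was lost when low values were not filtered (adjusted p = 0.0546). At day 20 both sections overlapped day 0, with 20.9, 11.2 and 11.8 TPM in rectum and 21, 8.43 and 15.0 TPM in mid-colon. Neither was called (0.21 ± 0.22, adjusted p = 0.562, and 0.30 ± 0.29, adjusted p = 0.593). Goblet cell markers were high at the day of the Cftr low: 5 of them, such as Muc2, summed to between 25231 and 27603 TPM in rectum at day 6 and between 10897 and 14173 TPM at day 0, and their part in the result was not tested.

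All 3 sodium channel subunits were still called below day 0 in rectum at day 20. Scnn1a, the alpha subunit, was at 135, 125, 141 and 109 TPM in untreated rectum, at 66.3, 77.9 and 78.3 TPM at day 3 and at 41.5, 24.7 and 54.2 TPM at day 9 (-1.71 ± 0.24, adjusted p = 3.75e-04). In mid-colon the day 9 change was -1.84 ± 0.24 (adjusted p = 2.45e-04). At day 20 it stood at 59.3, 40.7 and 89.6 TPM in rectum, still below every untreated value (-1.07 ± 0.24, adjusted p = 0.0389), a call lost on leaving out any library but that of mouse 19 (adjusted p from 0.0648 to 0.114).

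Scnn1g, the gamma subunit, was lowest in rectum at day 20, when Slc26a3 and Aqp8 had risen again. Against 39.8, 61.7, 41.9 and 45.3 TPM at day 0, it was at 10.5, 20.0 and 16.5 TPM at day 3 (-1.55 ± 0.22, adjusted p = 0.00351). At day 9 the mice disagreed, with 42.3 TPM in mouse 11, 5.05 TPM in mouse 12 and 20.1 TPM in mouse 13 (-1.42 ± 0.55, adjusted p = 0.0568). Without mouse 11 the change was -2.07 (adjusted p = 0.00514), and with TMM factors it was called at -1.58 (adjusted p = 0.0311). The rectal library of mouse 11 held 587 TPM of squamous markers against 97.8 and 83.1 TPM in mice 12 and 13, and their part was not tested. At day 14 it was at 17.6, 6.09 and 7.57 TPM (-2.19 ± 0.32, adjusted p = 0.0105). At day 20 it was at 8.68, 2.15 and 6.55 TPM (-2.95 ± 0.36, adjusted p = 0.00863), a call kept on leaving out any 1 library and, at -2.73, relative to simple epithelial genes (adjusted p = 0.00925). In mid-colon Scnn1g was called lower at day 9, at 7.81, 4.91 and 9.88 TPM (-1.06 ± 0.27, adjusted p = 0.00903), and not relative to simple epithelial genes (-0.67, adjusted p = 0.0858). Mid-colonic Scnn1g at day 20 was at 13.5, 2.48 and 3.99 TPM against 11.4, 22.5, 16.1 and 16.9 TPM, which overlapped (-1.45 ± 0.43, adjusted p = 0.103). Without mouse 17 that change was -2.05 (adjusted p = 0.0371).

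Scnn1b, the beta subunit, was at 26.5, 29.1, 25.7 and 28.8 TPM in untreated rectum and at 11.0, 7.38 and 10.7 TPM at day 20 (-1.43 ± 0.15, adjusted p = 0.00723). It had fallen by day 3 (9.14, 12.0 and 13.1 TPM, -1.21 ± 0.13, adjusted p = 8.35e-04). At day 9 the same mouse was high and the same mouse low as for Scnn1g, with 39.0, 4.77 and 18.5 TPM in mice 11, 12 and 13 (-0.79 ± 0.53, adjusted p = 0.244). Without mouse 11 it was called lower (-1.42, adjusted p = 0.0194). In mid-colon Scnn1b was called lower at day 6 (-1.08 ± 0.19, adjusted p = 0.00758) and not at day 20, with 17.2, 18.3 and 8.98 TPM against 17.6, 19.4, 15.5 and 14.9 TPM (-0.23 ± 0.25, adjusted p = 0.638). In the rectum the fall of all 3 subunits at day 3 came with a drop in dividing cell markers, whose 4 genes summed to between 7.46 and 20.1 TPM against 76.7 to 99.7 TPM, and their part was not tested. With all 66 samples in the fit none of the 3 was called at day 3 (adjusted p from 0.15 to 0.182).

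Atp12a, the catalytic subunit of the colonic proton-potassium pump that recovers potassium, was the only gene of the 10 called higher than at day 0. In rectum it was at 269, 379.6, 394 and 325 TPM at day 0 and at 526, 554 and 570.2 TPM at day 6. The groups did not overlap, and the change was 0.70 ± 0.13 (adjusted p = 0.0042). At day 3 the rectal change was as large, 0.71 ± 0.18 with values of 465, 739 and 497 TPM, but its adjusted p was 0.0532, and 0.0488 with a filter of at least 5 TPM. In mid-colon the day 3 values of 588, 687 and 634 TPM were above the untreated 324, 513, 521 and 375 TPM without being called (0.58 ± 0.18, adjusted p = 0.255). With all 66 samples in the fit the rectal rise at day 6 was not called either (adjusted p = 0.135).

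At day 9 Atp12a was lower. It was at 149, 225 and 219 TPM in rectum (-0.79 ± 0.19, adjusted p = 0.00633) and at 228, 234 and 293 TPM in mid-colon (-0.76 ± 0.19, adjusted p = 0.00925), and relative to simple epithelial genes neither was called (-0.49, adjusted p = 0.107, and -0.37, adjusted p = 0.15). In mid-colon it went on falling to 144, 113 and 181 TPM at day 20, below all values of day 0 and day 9. Day 20 was -1.56 ± 0.23 against day 0 (adjusted p = 0.0127) and -0.80 ± 0.22 against day 9 (adjusted p = 0.0367). The fall from day 9 was lost with TMM factors (-0.60, adjusted p = 0.102), and without mouse 11, 12, 13, 17 or 18 (adjusted p from 0.0586 to 0.154). The fall from day 0 was lost without mouse 3 (adjusted p = 0.0524) or 17 (0.0634), and relative to simple epithelial genes (-1.29, adjusted p = 0.0737). In rectum at day 20 it was at 213, 355 and 197 TPM, not called (-0.46 ± 0.22, adjusted p = 0.212).

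**Figure D3:**
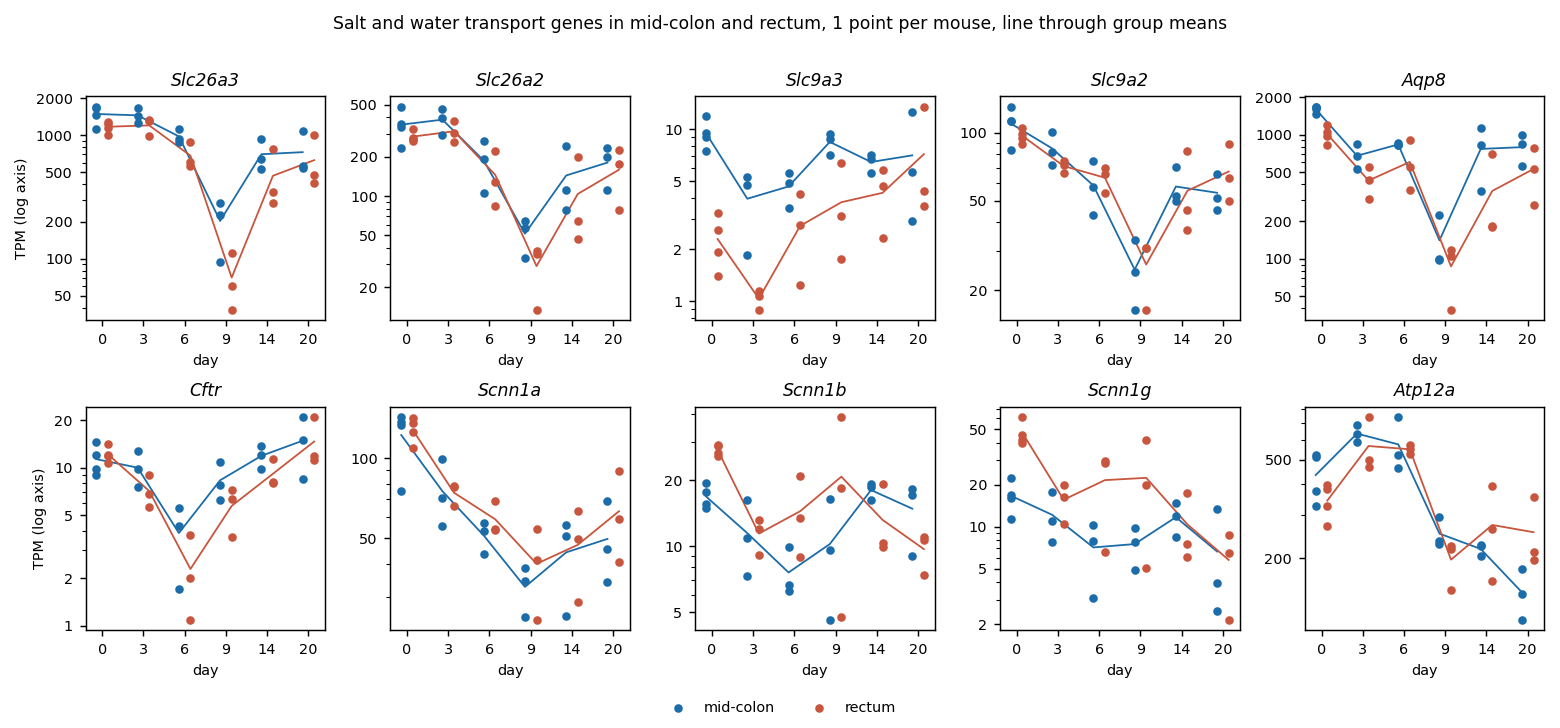
TPM on log axes of the 10 genes in mid-colon and rectum by day, with 1 point per mouse and a line through the group means (4 mice at day 0, 3 at each later day). Slc26a3, Slc26a2, Slc9a2 and Aqp8 are lowest at day 9, Cftr at day 6, rectal Scnn1b and Scnn1g at day 20, and Atp12a is highest at days 3 and 6.

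From day 9 to day 20, 4 of the 10 genes rose in mid-colon (Slc26a3, Slc26a2, Slc9a2 and Aqp8), against 6.08% of all 12308 genes tested, and 1 fell (Atp12a), against 14.5%. In rectum the same 4 and Cftr rose, 5 of 10, against 5.95% of 13097 genes, and none was called lower. None of the sodium channel subunits was called in either section, with changes from -1.53 ± 0.71 for Scnn1g in rectum (adjusted p = 0.165) to 0.64 ± 0.36 for Scnn1a in rectum (adjusted p = 0.243). Without mouse 12 the rectal fall of Scnn1g was called (-2.30, adjusted p = 0.0464), and without mouse 18 a rise of Cftr in mid-colon (1.04, adjusted p = 0.0427). Leaving out any 1 library left between 3 and 5 calls in mid-colon and 3 or 4 in rectum. Slc9a2 lost its call in mid-colon without mouse 12, 13, 17 or 19 and in rectum without mouse 12, 13 or 19 (adjusted p up to 0.08), and Cftr in rectum without any 1 of the 6 (up to 0.0993). With TMM factors the mid-colonic split was 4 higher and 0 lower, and the share of all genes called with them is not given.

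**Figure D4:**
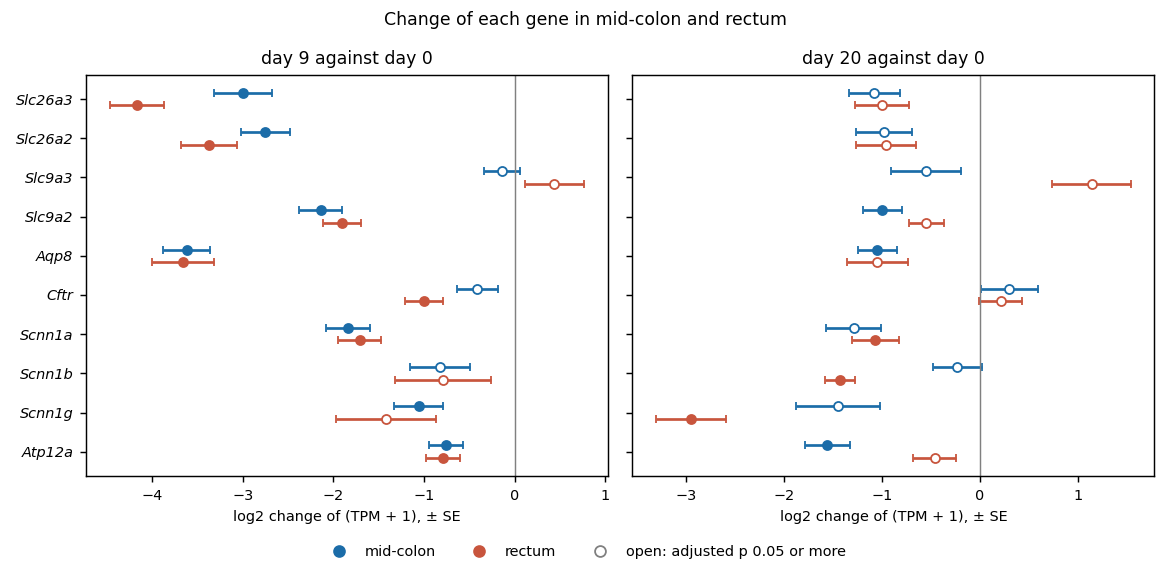
Log2 change of (TPM + 1) with its SE for the 10 genes at day 9 and day 20 against day 0, in mid-colon (3 mice against 4) and rectum (3 against 4). Filled points have an adjusted p under 0.05. At day 9 Slc26a3, Slc26a2 and Aqp8 lie farthest below 0, and at day 20 rectal Scnn1g does.

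The response to DSS was not called different between rectum and mid-colon for any of the 10 genes at days 3, 6, 9, 14 or 20 by limma, where 0%, 0%, 6.55%, 0.00755% and 0.00756% of all genes were called. At an unadjusted p under 0.05 there were 2, 1, 1, 3 and 4 of 10, against 7.60%, 5.62%, 18.3%, 4.25% and 4.76% of all genes. At day 9 the fall of Slc26a3 was larger in rectum by 1.17 ± 0.50 (difference -1.17, adjusted p = 0.222). Rectum and mid-colon came from the same mice, and with the mouse as a block the adjusted p of that difference was 0.00382. It was also called without mouse 12 (-1.29, adjusted p = 0.0283). At day 14 Scnn1b and Scnn1g differed by -1.16 ± 0.27 (adjusted p = 0.542) and -1.72 ± 0.44 (adjusted p = 0.883). Without mouse 14 both were called (-1.43, adjusted p = 0.00316, and -1.96, adjusted p = 0.0106). At day 20 they differed by -1.20 ± 0.30 (adjusted p = 0.762) and -1.50 ± 0.62 (adjusted p = 0.976), and Scnn1b was called without mouse 19 (-1.58, adjusted p = 0.0222).

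In anus, 8 of the 10 genes passed the filter on low values, and Slc9a3 and Cftr did not. None of the 8 was called at day 3 (0.0440% of all 13639 genes were, and 0 of the 8 had an unadjusted p under 0.05). All 8 were called lower at day 6 (6.37% of all genes), 6 at day 9 (3.63%), 5 at day 14 (2.01%) and 1, Atp12a, at day 20 (0.371%). Aqp8 was under 1 TPM in every anal library of day 6. There it passed the filter only through day 0, so it could only be called lower. With no filter on low values 6 genes were called lower at day 6, and the share of all genes called without it is not given. Slc26a3 went from 52.9, 98.4, 104 and 311 TPM at day 0 to 0.822, 1.51 and 0.837 TPM at day 6 (-5.82 ± 0.50, adjusted p = 3.93e-04). Aqp8 went from 59.4, 109.9, 85.6 and 179 TPM to 0.779, 0.788 and 0.500 TPM (-5.91 ± 0.33, adjusted p = 1.08e-04). Atp12a fell from 72.3, 93.2, 74.8 and 202 TPM to 11.2, 11.0 and 10.3 TPM (-3.10 ± 0.33, adjusted p = 8.16e-04). Scnn1a, Scnn1b and Slc9a2 fell by less, by 1.57, 1.21 and 2.09 on the log2 scale. The simple epithelial sum fell with them, from between 1738 and 4951 TPM to between 155 and 324 TPM, goblet cell markers from between 655 and 2243 TPM to between 39.6 and 86.4 TPM, and squamous markers were between 13701 and 18185 TPM against 8718 to 14481 TPM. The part of these markers in the result was not tested.

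By day 20 anal levels were uneven between mice. Slc26a3 was at 92.1, 4.87 and 30.8 TPM in mice 17, 18 and 19, and Aqp8 at 65.1, 2.40 and 20.3 TPM. Atp12a was at 19.5, 6.23 and 16.1 TPM, below every untreated value (-2.90 ± 0.45, adjusted p = 0.0308), a call lost without mouse 2, 3, 18 or 19 (adjusted p from 0.0623 to 0.0987). Without mouse 1, Scnn1g was called as well (-2.59, adjusted p = 0.0387). At day 6 the Scnn1b call was lost without mouse 2, 8, 9 or 10 and the Slc9a2 call without mouse 8, 9 or 10 (adjusted p up to 0.179). At day 9 Slc26a2, Slc9a2 and Scnn1g were each lost without mouse 2, 11, 12 or 13 (up to 0.127). At day 14 the calls were Slc26a3, Aqp8, Scnn1b, Scnn1g and Atp12a. There Slc26a3 was lost without mouse 2, 3, 4, 15 or 16, Scnn1b without mouse 2, 14, 15 or 16, and Scnn1g without mouse 2 or 16 (up to 0.15). Slc26a2 was gained there without mouse 1 or 4 (0.0402 and lower).

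Squamous neo-epithelium held little Slc26a3, Aqp8 and Atp12a at day 9 and more at day 20. Scnn1a was at 15.6 TPM or more in all 9 neo-epithelial libraries. In a fit of day 9 alone it was not called against rectum (-0.87, adjusted p = 0.0996) or anus (-0.14, adjusted p = 0.7). Slc26a3 was at 5.20, 0 and 0.291 TPM at day 9, at 119.6, 13.0 and 24.7 TPM at day 14 and at 373, 137 and 334 TPM at day 20. Aqp8 was at 0.489, 0.0619 and 0.203 TPM, then at 59.1, 7.56 and 11.1 TPM, then at 165, 188 and 313 TPM. For both, every day 20 value was above every day 14 value. Atp12a was at 3.80, 0.627 and 0.988 TPM at day 9, at 209.5, 58.6 and 41.2 TPM at day 14 and at 107, 115 and 145 TPM at day 20. At day 14 mouse 14 was the highest for all 10 genes. Its library held 6070 TPM of goblet cell markers against 698 and 1137 TPM in mice 15 and 16, and 7787 TPM of simple epithelial markers against 3971 and 3682 TPM, and their part was not tested.

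Of the 9 genes that passed the filter, 8 rose in neo-epithelium from day 9 to day 20, against 10.1% of all 13186 genes tested. Aqp8 was under 1 TPM in every day 9 library. It passed the filter only through day 20, so it could only be called higher. The changes ran up to 7.43 ± 0.27 for Aqp8 (adjusted p = 2.74e-04) and 7.01 ± 0.74 for Slc26a3 (adjusted p = 0.00316). Scnn1b was not called (1.47 ± 0.58, adjusted p = 0.107), and without mouse 11 it was (2.05, adjusted p = 0.0385). The calls of Scnn1a and Scnn1g were each lost without mouse 12, 13, 17 or 19 (adjusted p from 0.0523 to 0.0914). Slc9a3, which did not pass the filter, was at 0.144, 0 and 0.0219 TPM at day 9 and at 1.13, 0.488 and 1.80 TPM at day 20. Simple epithelial markers summed to between 1956 and 3029 TPM at day 9 and between 4785 and 7256 TPM at day 20, goblet cell markers to between 4.42 and 83.8 TPM and between 3281 and 7123 TPM, and squamous markers to between 24001 and 25936 TPM and between 16295 and 18494 TPM. Their part in the rise was not tested.

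Over days 9, 14 and 20, with day as a term, 9 of the 10 genes were lower in neo-epithelium than in rectum, against 21.3% of all 14492 genes tested. Scnn1a was not called (-0.47 ± 0.21, adjusted p = 0.0767), and was with the mouse as a block (adjusted p = 0.0312). Aqp8 differed by the most (-3.71 ± 0.61, adjusted p = 1.08e-04). In each mouse of every day neo-epithelium was below the rectum for all genes but Scnn1g at day 20, which was below in 0 of 3 mice. There Scnn1g was at 9.18, 3.20 and 13.2 TPM in neo-epithelium and at 8.68, 2.15 and 6.55 TPM in rectum. Over these 9 mice simple epithelial sums were between 1956 and 7787 TPM in neo-epithelium and between 6988 and 11360 TPM in rectum. Squamous sums were between 11469 and 25936 TPM against 7.92 to 766 TPM, and the part of both in the result was not tested. In fits of 1 day each, chosen after the data were seen and with 3 mice a section, 9 genes were called lower at day 9, 4 at day 14 and 0 at day 20, against 15.0%, 6.43% and 0.717% of all genes. The Slc26a3 change was -5.02 at day 9 (adjusted p = 0.00215), -3.60 at day 14 (adjusted p = 0.0351) and -1.17 at day 20 (adjusted p = 0.204). For Slc26a2 the changes were -1.98, -2.13 and -1.19, and for Slc9a3 they were -2.06, -2.13 and -1.78. Whether the days differ was not tested. Over all 3 days the Scnn1g call was lost without mouse 13 (-1.42, adjusted p = 0.0716) or 16 (-1.66, adjusted p = 0.0509), and Scnn1a was called without mouse 16 (-0.53, adjusted p = 0.0475).

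Against anus, 6 of the 9 genes that passed the filter were higher in neo-epithelium (Slc26a3, Slc26a2, Slc9a2, Aqp8, Cftr and Atp12a), where 38.1% of all 14861 genes were. Simple epithelial sums were between 1956 and 7787 TPM in neo-epithelium and between 244 and 1969 TPM in anus, and their part was not tested. With TMM factors 5 were called higher and 1, Scnn1b, lower, and the share of all genes called with these factors is not given. Atp12a changed sides with the day. It was below anus in 3 of 3 mice at day 9 (-1.41, adjusted p = 0.0289) and above it in 3 of 3 mice at day 14 (3.58, adjusted p = 0.00697) and at day 20 (3.16, adjusted p = 0.00331), by the fits of 1 day each. With the mouse as a block the Atp12a difference over all days was not called (1.78, adjusted p = 0.0546). It was also lost without mouse 14, 15, 16, 18 or 19 (adjusted p from 0.055 to 0.0673), Slc26a2 without mouse 14, 16 or 19 (up to 0.0879) and Aqp8 without mouse 19 (1.61, adjusted p = 0.0557). Scnn1a was called higher without mouse 11 or 13 (0.39, adjusted p = 0.0496, and 0.47, adjusted p = 0.0165), and Scnn1b lower without mouse 19 (-0.87, adjusted p = 0.0299).

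**Figure D5:**
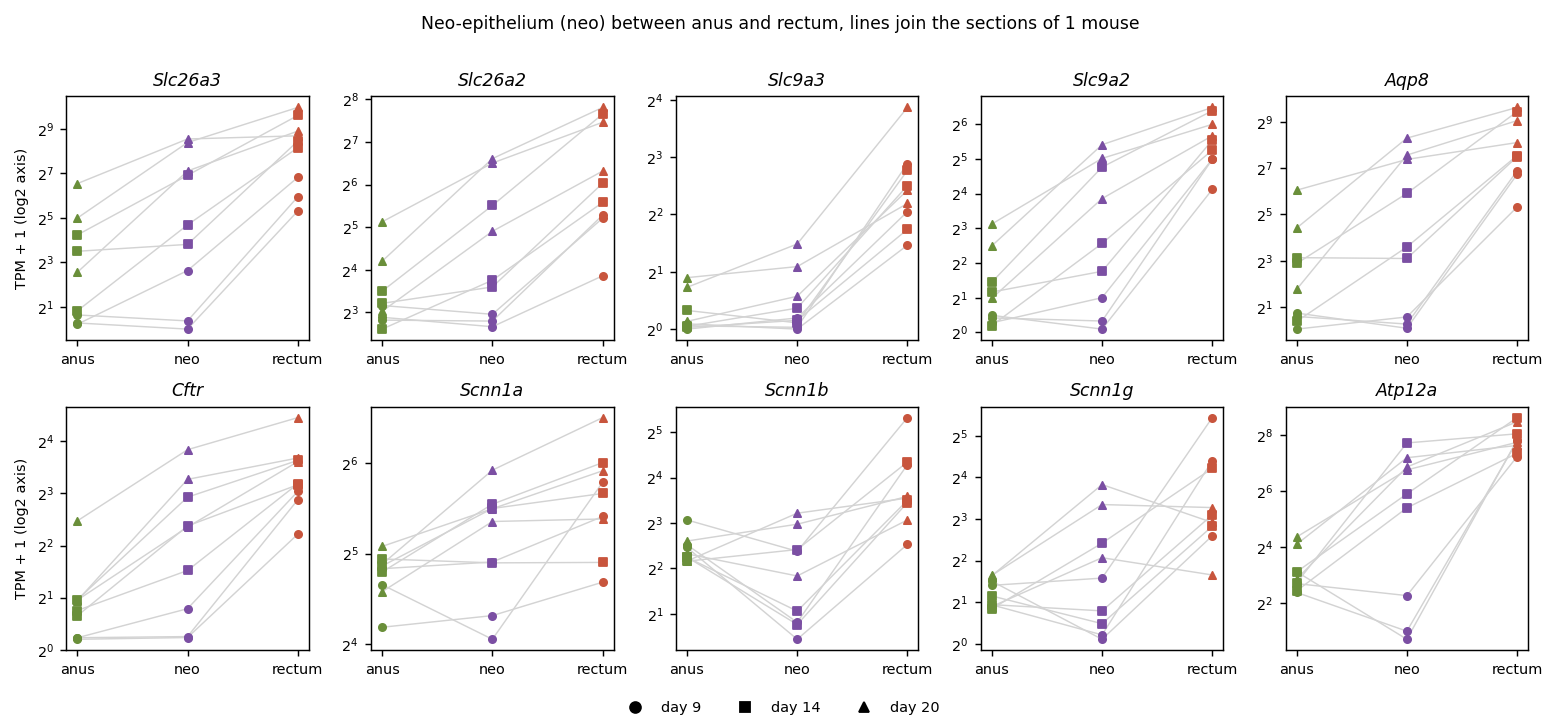
TPM + 1 on log2 axes of the 10 genes in the anus, neo-epithelium (neo) and rectum of the 9 mice of days 9, 14 and 20, with lines joining the sections of 1 mouse. Neo-epithelium is below rectum in every mouse but for Scnn1g at day 20, and its day 20 levels are above its day 9 levels for each gene but Scnn1b, where they overlap.

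Of 43 other genes of colonic ion and water transport, in 10 lists, 24 of 40 tested were called in mid-colon at day 9 (5 higher, 19 lower) and 28 of 41 in rectum (7 higher, 21 lower), where 43.4% and 53.5% of all genes were called. Their median change was -0.44 in mid-colon and -0.40 in rectum, beside -1.45 and -1.57 for the 10 genes. Each percent that follows in this paragraph is the share of all genes called in either direction. In rectum 3 of 40 were called after 3 days, all lower (6.62% of all genes were called), and 28 of 40 after 6 days, 25 of them lower (48.7%). After 14 days 17 of 41 were called, 13 of them lower (15.8%), and after 20 days 12 of 41, 9 of them lower (7.68%). In mid-colon there were 0 of 40 after 3 days by limma (0.375% of all genes), and 5 had an unadjusted p under 0.05. Then there were 18 after 6 days, 17 of them lower (14.9%), 8 after 14 days, 5 of them lower (4.36%), and 6 after 20 days, 5 of them lower (1.56%).

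Fxyd4, a regulator of the basolateral sodium pump, fell from 149.9 ± 16.3 TPM to 30.3 ± 18.1 TPM in rectum at day 9 (-2.41 ± 0.30, adjusted p = 2.37e-04) and was still low at day 20 (37.5 ± 17.4 TPM, -2.06 ± 0.26, adjusted p = 0.0102). Atp1b3, a beta subunit of the pump, and Fxyd3 rose in rectum at day 9, by 1.26 ± 0.11 and 0.68 ± 0.12.

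Among 8 genes of aldosterone action and sodium channel control, 5 were lower at day 9 in each section and none higher, where 17.0% of all genes were lower in mid-colon and 20.0% in rectum. Nr3c2, the mineralocorticoid receptor, went from 65.9 ± 5.26 TPM to 15.5 ± 8.41 TPM in rectum (-2.14 ± 0.28, adjusted p = 3.03e-04). Hsd11b2, the enzyme that keeps glucocorticoids off that receptor, went from 88.9 ± 12.3 TPM to 15.9 ± 10.5 TPM (-2.62 ± 0.40, adjusted p = 6.44e-04). At day 20 it was at 40.4 ± 1.39 TPM (-1.11 ± 0.13, adjusted p = 0.00784) and Nr3c2 at 39.9 ± 12.0 TPM (-0.75 ± 0.19, adjusted p = 0.0497). Sgk1, Nr3c1 and Nedd4l were the other 3 that fell at day 9 in both sections, and the proteases Prss8, Tmprss4 and St14 were not called.

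Of 6 other chloride and bicarbonate genes, 5 were lower in mid-colon at day 9, and 4 lower and 1 higher (Slc26a6) in rectum, beside the same 17.0% and 20.0% of all genes lower. Slc4a4, a sodium-bicarbonate cotransporter, fell in rectum from 52.0 ± 5.80 TPM to 5.64 ± 5.97 TPM (-3.38 ± 0.49, adjusted p = 5.16e-04). Ano1, a calcium-activated chloride channel, was already called at day 3 in rectum (-1.64 ± 0.16, adjusted p = 6.24e-04) and was at -2.61 ± 0.25 at day 9. Best2 and Clcn2 were lower at day 9 in both sections. Slc12a2, the basolateral chloride entry step for secretion, rose at day 9 in rectum (0.54 ± 0.12, adjusted p = 0.00493) and in mid-colon (0.81 ± 0.25, adjusted p = 0.0221), while Slc12a7 fell in both. Kcne3 and Kcnn4 were not called at day 9.

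Both uptake carriers of short-chain fatty acids fell at day 9. Slc5a8 went from 96.1 ± 4.60 TPM to 14.3 ± 3.92 TPM in rectum (-2.70 ± 0.18, adjusted p = 7.71e-06) and was at 89.3 ± 25.4 TPM at day 20, when neither carrier was called. Guca2a, which encodes the secretagogue guanylin, fell from 1036 ± 219 TPM to 194 ± 109 TPM in rectum (-2.53 ± 0.32, adjusted p = 2.38e-04). Guca2b, which encodes uroguanylin, was not called at day 9 and was higher at day 20 in rectum (13.3 ± 1.64 to 36.3 ± 6.75 TPM, 1.37 ± 0.16, adjusted p = 0.00784).

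One water channel rose while Aqp8 fell. Aqp4 was at 17.2 ± 1.18 TPM in mid-colon at day 0 and at 115 ± 37.2 TPM at day 9 (2.62 ± 0.23, adjusted p = 2.63e-05), and in rectum at 8.41 ± 3.06 and 36.9 ± 13.5 TPM (2.00 ± 0.28, adjusted p = 3.99e-04). It was the only one of the 43 called between the untreated rectum and mid-colon (-1.0 ± 0.19, adjusted p = 0.0362). Aqp11 fell with Aqp8 at day 9 (-2.27 ± 0.19 in rectum, adjusted p = 2.69e-05). Aqp3, an aquaporin of squamous epithelium, was at 1.11 ± 0.592 TPM in untreated rectum and at 96.5 ± 6.42 TPM in untreated anus, and at 321 ± 66.4 TPM in neo-epithelium at day 9.

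Across the 66 samples, which share sections and mice, the genes whose log2 levels were most like each of the 10 are given as a description, over 11840 genes with a group mean of at least 5 TPM. Slc26a3 was most like Mep1a and Sult1d1 (Pearson r = 0.989 for each) and Aqp8 like Ces2c (0.988) and Sycn (0.981). Slc26a2 was most like Abcb1a (0.980) and Phlpp2 (0.978), Slc9a2 like Cxadr and Nr1i2 (0.982 each), and Atp12a like Cideb and Themis3 (0.956 each). Slc9a3 was most like the homeobox gene Cdx2 (0.918), then Foxd2 (0.893). Cftr was most like 9130208D14Rik (0.956) and Casd1 (0.953), and Scnn1a like Spint1 (0.937) and Acap2 (0.932). Scnn1b and Scnn1g, the neighbouring subunit genes, were each most like the other (0.890), ahead of Camsap3 for Scnn1b (0.844) and Slc6a8 for Scnn1g (0.856). Among the 10 genes themselves Slc26a3 went closest with Aqp8 (0.98), and Slc9a3 had its lowest value with Scnn1g (0.50).

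The gene sums rested mostly on 1 transcript each. In the 56 samples with at least 5 TPM of Slc26a3, its main transcript ENSMUST00000001254 held between 69.2% and 85.1%. Scnn1a's main transcript held between 66.3% and 100% in 66 samples and that of Aqp8 between 60.7% and 100% in 55 samples. Slc9a3, Scnn1b, Scnn1g and Atp12a each had 1 transcript with values.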

How the data were processed

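RNA from 66 sections of 19 mice was sequenced as stranded mRNA libraries of single-end 75 bp reads, per the labels' protocols. The submitters' processing notes name CASAVA, kallisto and the mm10 build, with no versions. The authors deposited one signal table of TPM per Ensembl transcript, and read counts were not used here, so depth is unknown and no counting interval is given. Of its 126860 rows, 37344 held no values, and 1318 repeats of a transcript were dropped. Columns summed to between 1027330.2 and 1062208.5 before that step and to between 999999.8 and 1000000.2 after it. The remaining 88198 transcripts were summed to 30452 genes, and 1284 without a gene identifier were left out. Libraries had between 11268 and 13789 genes at 1 TPM or more. Positions are from GENCODE vM21 (GRCm38, the same build as mm10), and upstream sequences from RefSeq (GRCm38.p6).

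Log2(TPM + 1) was fitted with limma 3.58.1 (R 4.3.3, mean-variance trend). Genes entered a fit where the number of its samples with 1 TPM or more reached the size of its smallest group of a section and day. Fits held only the samples compared, and p-values were adjusted by Benjamini-Hochberg over all genes tested. Replicates are mice, which the labels number. The code was tested on simulated data. Alternatives were a pseudocount of 0.1, no filter, a filter of at least 5 TPM, TMM factors computed on TPM (trimmed mean of M values, a scaling to a common middle of the genes), at least a 2-fold change, levels relative to 6 simple epithelial genes, all 66 samples in 1 fit, the mouse as a block, each library left out in turn, and each day alone for neo-epithelium, the last added after the data were seen. Sections with the same mouse number are from the same mouse, per the labels. Over genes, the deviations of a mouse's rectum and mid-colon from their group means had a mean r of 0.29 (19 mice), neo-epithelium and rectum 0.25 (9), neo-epithelium and anus 0.15 (9), and anus and rectum at day 0 0.05 (4).

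All 10 members are counted in every comparison, with values for those that a result turns on. Of the 43 other transport genes, those called at day 9 in rectum or mid-colon, or at day 0 between sections, could be named, and the rest are counted. Some results of these lists are not reported here. Aqp3, Guca2b at day 20 and the genes named as not called were picked out after their values were seen. The members, lists, markers and tests were chosen with earlier results of these data known. Python 3.11.15, numpy 2.4.6, pandas 2.3.3 and matplotlib 3.10.9 were used.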

Additional observations from a re-analysis of the deposited data

Results flagged for a closer look

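In 4 of the 30 groups of 4 mice that were examined (10 genes in 3 sections of untreated mice), 1 mouse lay far from the other 3. Chance gives about 1 such group in 20 (5%). The 10 genes were read in the same libraries, so the groups are not independent, and whether the count exceeds chance cannot be judged. All 4 were mouse 4. In its anus Slc26a2 was at 97.6 TPM, Cftr at 3.75 TPM and Atp12a at 202 TPM, each the highest of the group, and in its mid-colon Scnn1a was at 75.3 TPM, the lowest. The anal library of mouse 4 also held the highest simple epithelial sum of its group, 4951 TPM against 1738 to 2738 TPM.

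Atp12a moved in opposite directions at day 6. Every anal sample was below every untreated one, with a log2 change of -3.10, and the mean changes were 0.41 in mid-colon, where the groups overlapped, and 0.70 in rectum, where they did not. The difference between anus and the other sections was not tested.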

How the results depend on the processing

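Over the 10 genes and all comparisons, 3441 alternatives were computed: 2975 kept their direction and their side of the threshold, 332 lost a call, 54 gained one, 77 moved without a call and 3 reversed. Counts below are members called. The share of all genes called under each alternative is not given in this section. A moved count therefore cannot be told from a change over all genes. The day 9 counts in mid-colon and rectum, and those of anus against rectum at day 0, stayed within 1.5 times under every alternative run. Where a count moved further, the cause was not tested. With no filter on low values, more genes were tested, and the counts were 0, 3, 0 and 0 in mid-colon at days 3, 6, 14 and 20, 3 in rectum at day 14, and 3, 2 and 0 in anus at days 9, 14 and 20. They were 2 in mid-colon and 3 in rectum from day 9 to day 20, and 1 between rectum and mid-colon at day 0. With TMM factors they were 2 in mid-colon at day 3 and 2 in anus at day 20. Relative to simple epithelial genes they were 2, 5, 1 and 0 in mid-colon at days 3, 6, 14 and 20, 3 there from day 9 to day 20, and 2 between rectum and mid-colon. With all 66 samples in 1 fit they were 0, 3 and 1 in mid-colon at days 3, 6 and 14, 0, 3 and 4 in rectum at those days, and 5 in anus at day 20. With at least a 2-fold change they were 4 and 2 in mid-colon at days 6 and 14, 3 and 4 in rectum at days 3 and 6, and 2 between rectum and mid-colon.

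Leaving out 1 library gave 0 to 1, 4 to 9, 7 to 8, 0 to 6 and 0 to 5 calls in mid-colon at days 3, 6, 9, 14 and 20. In rectum it gave 4 to 6, 7 to 9, 7 to 9, 2 to 8 and 2 to 7. In anus it gave 0 at day 3, then 6 to 8, 3 to 6, 2 to 6 and 0 to 2. From day 9 to day 20 it gave 3 to 5 in mid-colon and 3 to 4 in rectum. Rectum against mid-colon gave 0 to 4, and anus against rectum 10. Neo-epithelium gave 8 to 9 against rectum, 4 to 7 against anus and 6 to 9 from day 9 to day 20. The difference in response gave 0 at days 3 and 6, 0 to 1 at day 9, 0 to 2 at day 14 and 0 to 1 at day 20.

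Neo-epithelium by single days, chosen after seeing the data, with 3 mice a section, gave 4 and 0 calls against rectum at days 14 and 20. Against anus it gave 2 calls at day 9, both lower (Scnn1b, -1.48, adjusted p = 0.0419, and Atp12a). At days 14 and 20 it gave 2 and 3 calls against anus, all higher. Scnn1g against rectum turned to 0.47 at day 20 (adjusted p = 0.69), and against anus at day 9 Slc26a2 turned to -0.15 (adjusted p = 0.488) and Atp12a to -1.41 (adjusted p = 0.0289). With the mouse as a replicate block 1 gene, Slc26a3, was called for the difference in response at day 9. Over the 89 member comparisons that could be paired, the block changed 3 calls, those of Slc26a3 here and of Scnn1a and Atp12a in neo-epithelium. Depth is unknown, so levels near 0, such as those of Slc9a3 and Cftr in anus, have no stated counting error.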
